A study of Homo sapiens with 12 samples.

Results

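The transcription factor NRF2, its inhibitor KEAP1 and 7 antioxidant genes were followed in OCI-AML3, a cell line from a human acute myeloid leukaemia, over 4 drug treatments of 24 h. The 9 genes (NFE2L2, KEAP1, GCLC, GCLM, TXNRD1, PRDX1, SRXN1, GPX4 and NQO1) were chosen by symbol from a table of 54628 gene symbols. All 9 were in the table, and all 9 were among the 15173 genes with enough reads to be tested. The 12 libraries of poly(A) RNA form 4 groups of 3. The control group had DMSO, the solvent. The ABT199 group had venetoclax, an inhibitor of the survival protein BCL2. The ERKi group had an inhibitor of the kinases ERK1/2, given in the labels as compound 27, and the Comb group, here the combination, had venetoclax and the ERK inhibitor. All cells are of 1 line, and doses were not analysed here. Nothing in the labels says that replicates were separate cultures, so the tests measure the spread between these libraries, which may be technical. The series asks how ERK inhibition overcomes venetoclax resistance.

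NRF2, encoded by NFE2L2, is a transcription factor that is held in check by KEAP1. KEAP1 is an adaptor of a CUL3 ubiquitin ligase that keeps NRF2 short-lived until oxidants or electrophiles modify KEAP1's cysteines. Stabilised NRF2 pairs with a small MAF protein and binds antioxidant response elements, short DNA motifs near genes of glutathione synthesis, of the thioredoxin system and of quinone reduction. NRF2 is regulated largely at the level of the protein, so its RNA does not measure its activity. Genes whose transcription it can drive include GCLC, GCLM, TXNRD1, SRXN1, PRDX1 and NQO1.

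RefSeq promoter windows of GRCh38.p14, which run from 250 bases before to 50 bases after an annotated transcript start, were searched for the core of the antioxidant response element, TGACNNNGC, on both strands. Windows were at hand for 8 of the 9 genes, 13 windows in all. PRDX1 was not matched. The core was found in 4 windows of 3 genes (KEAP1, GCLM and TXNRD1), and in 13.3% of all 35116 promoter windows. The AP-1 site TGACTCA was found in 0 of the 13 windows and in 4.95% of all windows. The windows below are shown because they are those of a glutathione enzyme, of a thioredoxin enzyme and of the inhibitor itself that hold the core. Capitals mark each match, and each is written 5′ to 3′ on the gene's strand.
GCLM, chr1:93909381-93909680, minus strand: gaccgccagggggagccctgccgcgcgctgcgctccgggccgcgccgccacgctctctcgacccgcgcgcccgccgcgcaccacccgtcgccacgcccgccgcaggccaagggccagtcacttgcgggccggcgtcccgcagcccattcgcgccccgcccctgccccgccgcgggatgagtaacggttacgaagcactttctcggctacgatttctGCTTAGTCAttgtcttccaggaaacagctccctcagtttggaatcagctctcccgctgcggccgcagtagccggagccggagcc
TXNRD1, downstream start, chr12:104286782-104287081, plus strand: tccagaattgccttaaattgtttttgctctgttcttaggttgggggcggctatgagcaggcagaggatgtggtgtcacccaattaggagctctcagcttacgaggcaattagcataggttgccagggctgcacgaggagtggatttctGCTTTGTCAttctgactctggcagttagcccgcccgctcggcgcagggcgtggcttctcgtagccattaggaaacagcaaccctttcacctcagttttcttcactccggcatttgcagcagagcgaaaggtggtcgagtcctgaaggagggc
KEAP1, downstream start, chr19:10502722-10503021, minus strand: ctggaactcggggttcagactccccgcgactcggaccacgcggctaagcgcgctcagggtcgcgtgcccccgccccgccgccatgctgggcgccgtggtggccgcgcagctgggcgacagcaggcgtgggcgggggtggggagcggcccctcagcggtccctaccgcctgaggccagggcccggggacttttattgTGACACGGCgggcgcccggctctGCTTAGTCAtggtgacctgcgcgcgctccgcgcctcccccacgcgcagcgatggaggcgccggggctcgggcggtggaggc
The match in GCLM began 34 bases before the start and read GCTTAGTCA, the core on the opposite strand. The same 9 letters stood 31 bases before the downstream start of KEAP1, beside a further match, TGACACGGC, 54 bases before it. In TXNRD1 the downstream window had GCTTTGTCA 102 bases before the start, and the upstream window, not shown, had matches 99 and 8 bases before its start. These are matches of letters and not measured binding sites, and the windows of NFE2L2, NQO1, GCLC, SRXN1 and GPX4 do not hold these letters. Sequence beyond the windows was not searched, so an element farther from the start would be missed.

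Library totals ran from 19199296 to 21275065 counts. DMSO replicate 1 was unlike its group. Over the 9 genes alone, its chi-square per degree of freedom against the other DMSO libraries was 25.6 and 17.1, where other replicate pairs had 1.04 to 4.18. Markers of the line's myeloid lineage (PTPRC, SPI1, CD33, ANPEP, CEBPA and MPO) were detected in every group. They summed to 1108 to 1149 CPM (counts scaled to a library of 1e+06) with DMSO, 1069 to 1103 with venetoclax, 2041 to 2083 with ERKi and 1992 to 2034 in the combination. With ERKi against DMSO 5 of the 6 were called higher at an adjusted p below 0.05, and MPO was called lower. MPO was low throughout, at a mean of 1.72 CPM with DMSO, 1.75 with venetoclax, 0.996 with ERKi and 3.11 in the combination. The T cell and erythroid markers summed to at most 0.101 CPM in any library, B cell markers to at most 1.52 (MS4A1 at 0) and epithelial markers to at most 1.80 (EPCAM at 0). The 5 fibroblast markers summed to 6.04 to 33.9 CPM with DMSO, 12.3 to 23.6 with venetoclax and 9.33 to 24.0 with ERKi, but to at most 1.57 in the combination. The 4 endothelial markers rested on PECAM1, which monocytes also express, with CDH5 at 0 in all groups, and summed to 11.5 to 12.2 CPM with DMSO, 73.4 to 76.9 with ERKi and 88.3 to 97.9 in the combination. As a check of the drug, the ERK output genes DUSP6, SPRY4, ETV4 and ETV5 were examined. All 4 were called lower with ERKi against DMSO and in the combination against DMSO, and none was called with venetoclax alone. In the combination against ERKi, 3 of the 4 were called higher and 1 lower. Of all tested genes 26.5% were called higher there and 24.3% lower. ETV5 went from a mean of 7.06 CPM with ERKi to 12.6 in the combination, and DUSP6 from 2.24 to 1.27.

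Levels between genes were compared as CPM per kilobase of exon, with exon lengths from GENCODE release 29, since the authors' annotation is not given in the sources used here. With DMSO, PRDX1 was highest at 106.6 ± 1.76 CPM per kb (SD, n = 3), then GPX4 at 67.6 ± 11.7, TXNRD1 at 35.4 ± 2.51, KEAP1 at 25.4 ± 2.21, SRXN1 at 17.3 ± 0.666, NFE2L2 at 15.1 ± 0.151, NQO1 at 11.5 ± 0.165, GCLM at 10.3 ± 0.939 and GCLC at 2.94 ± 0.182. The same order held with venetoclax. With ERKi and in the combination GPX4 stood first, at 46.5 ± 2.58 and 69.8 ± 2.5, above PRDX1 at 38.6 ± 0.954 and 45.5 ± 1.66, and GCLM stood above NQO1. With ERKi, NFE2L2 also stood above SRXN1. In each of the 4 groups, 0 of the 8 pairs of neighbours in the order overlapped in their library values. The scale of such a comparison rests on the exon lengths used, which the spread between libraries does not cover.

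Some of the 9 genes share exon bases with other genes in GENCODE release 29, and their reads may be shared or left out, since neither the annotation nor the strand use of the counting is given in the sources used here. SRXN1 shares 2292 bases, 84.95% of its exon length, with the protein-coding AL121758.1 on the same strand. NFE2L2 shares 1054 bases (17.6%) with AC019080.1 on the same strand, 190 with AC079305.1 and 54 with AGPS on the other. NQO1 shares 575 bases (17.7%) with AC092115.2 on the other strand, and GCLC 529 (6.12%) with AL033397.1 on the same strand and 7 with AL033397.2 on the other. These clone-based names were not found among the symbols of the table. How reads on the shared bases were counted is not known, so the levels of these genes and their order are uncertain to that extent.

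**Figure D1:**
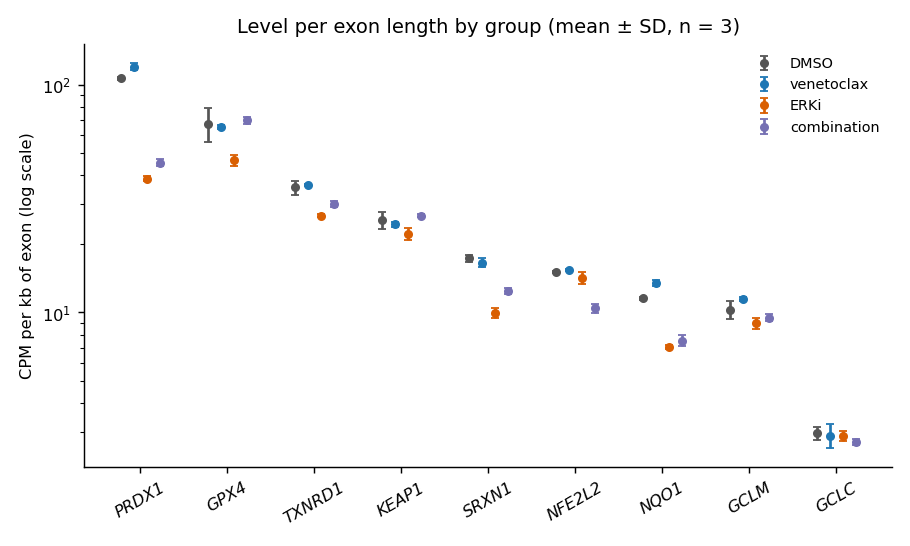
Mean level of each gene in CPM per kilobase of exon (vertical log axis) with its SD over 3 libraries, by group and in the DMSO order. PRDX1 is highest with DMSO at 106.6 and lies below GPX4 with ERKi (38.6 against 46.5), while GCLC is lowest in every group.

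With ERK inhibition alone, ERKi against DMSO, none of the genes rose and 7 of 9 fell, by 0.19 to 1.46 on the log2 scale, led by the peroxide-scavenging and redox enzymes PRDX1, SRXN1, NQO1 and GPX4. Across all tested genes, 35.2% were called lower, 34.5% higher and 69.7% in either direction. Here a call means an adjusted p below 0.05 from edgeR's quasi-likelihood test over all 15173 genes. The median log2 fold change was -0.41 over the 9 genes and 0.01 over all genes tested. Under scaling by library totals, and under upper quartile scaling, 5 of 9 were called, all lower, and KEAP1 and GCLM were not. The split over all genes went from 5232 higher and 5346 lower to 5925 and 4745 with library totals. It was 6308 and 4427 with upper quartile scaling. The 9 genes summed to 880 to 896 CPM with DMSO and 613 to 642 with ERKi. In RNA of a whole culture, fewer cells of a kind and less RNA per cell cannot be told apart. The myeloid and endothelial marker sums given above were higher with ERKi and in the combination, although MPO was lower with ERKi. Their part in the results on these groups was not tested.

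**Figure D2:**
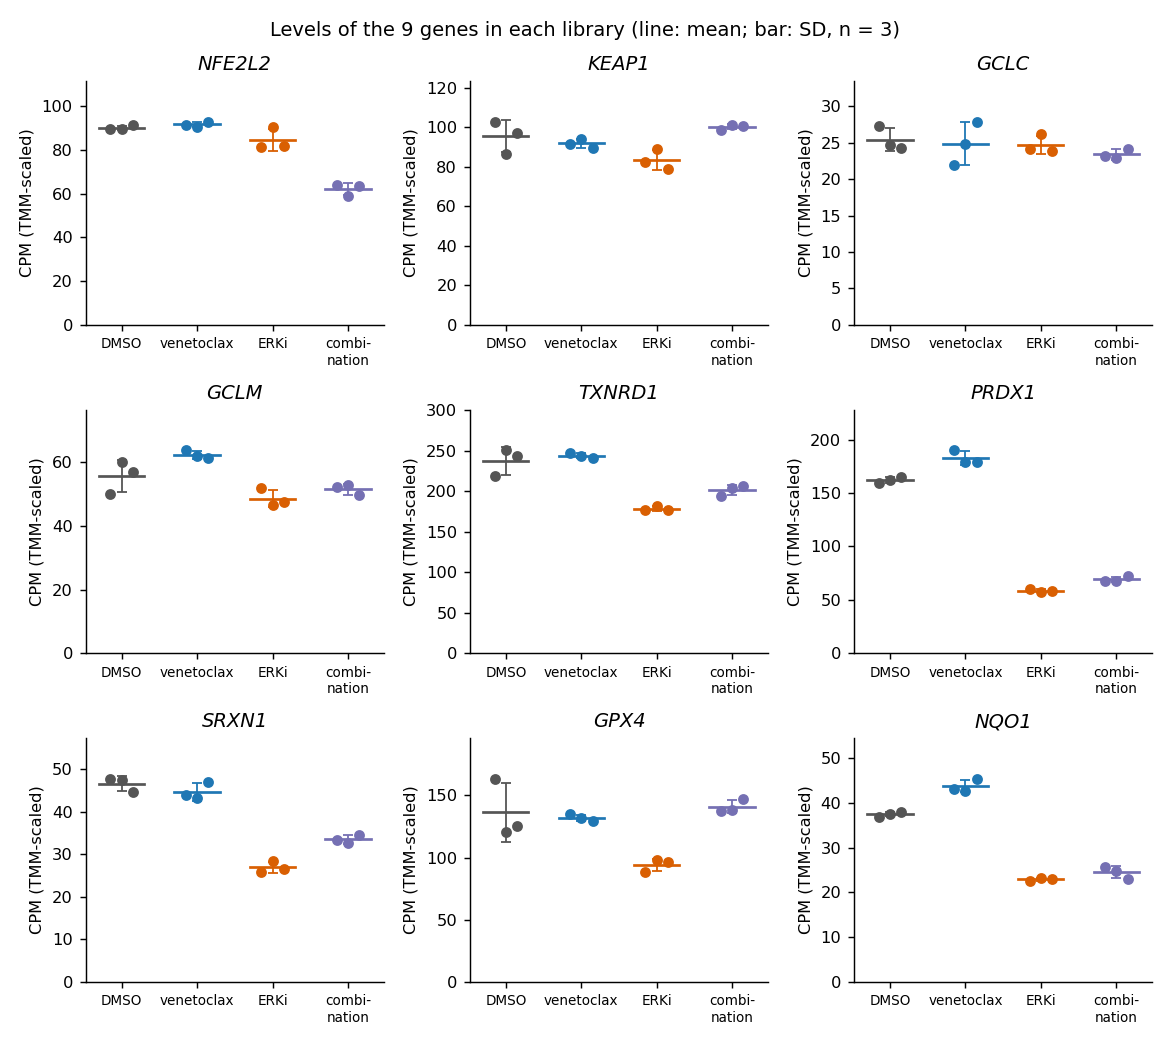
Level of each of the 9 genes in CPM (vertical axis, from 0) in every library of the 4 groups, with points for libraries, lines for means and bars for the SD (n = 3). PRDX1, NQO1 and SRXN1 sit lower in all ERKi and combination libraries than in all DMSO libraries, and NFE2L2 is lowest in the combination libraries, at 59.1 to 64.2, with ERKi libraries at 81.6 to 90.6.

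Among the regulators, NFE2L2, the gene of NRF2 itself, was called against DMSO with neither single drug and was lower with both together. NFE2L2 (chromosome 2, 177230303 to 177264727, GRCh38.p14, minus strand) was at 89.8, 89.7 and 91.3 CPM with DMSO, 91.5, 90.8 and 93.0 with venetoclax, 81.6, 90.6 and 81.9 with ERKi, and 64.2, 59.1 and 63.6 in the combination. The 3 combination libraries were below the 9 others, and ERKi replicates 1 and 3 were also below every DMSO library. Against DMSO the log2 fold change was 0.02 (SE 0.0518, adjusted p = 0.918) with venetoclax, -0.09 (SE 0.0518, adjusted p = 0.124) with ERKi and -0.53 (SE 0.0529, adjusted p = 1.6e-07) in the combination, a level 1.45-fold lower. Without ERKi replicate 2, the highest of its group, NFE2L2 was called lower with ERKi as well, at -0.15 (adjusted p = 0.0226).

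KEAP1 (chromosome 19, 10486125 to 10503356, minus strand), the inhibitor, was lower with ERKi by a small margin that depended on the libraries and the scaling. It was at 102.8, 86.5 and 97.3 CPM with DMSO, 91.5, 94.2 and 89.6 with venetoclax, 82.5, 89.1 and 79.1 with ERKi, and 98.8, 101.3 and 100.4 in the combination. The ERKi and DMSO libraries overlapped, and the combination lay above all ERKi libraries. With ERKi the log2 fold change of KEAP1 was -0.19 (SE 0.0616, adjusted p = 0.0106), a call lost without ERKi replicate 3 (adjusted p = 0.0604), under scaling by library totals (0.126) and under upper quartile scaling (0.409). In the combination it was at 0.07 against DMSO (SE 0.0614, adjusted p = 0.344), and it was called higher there under upper quartile scaling, at 0.18 (adjusted p = 0.016).

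Glutathione synthesis starts with glutamate-cysteine ligase, whose catalytic subunit is GCLC and whose modifier subunit is GCLM. The fold changes of both were small. GCLC (chromosome 6, 53497341 to 53545101, minus strand) was at 24.3 to 27.3 CPM with DMSO, 22.0 to 27.9 with venetoclax, 23.9 to 26.2 with ERKi and 22.9 to 24.2 in the combination, and passed the test in none of the 6 comparisons. Its log2 fold changes ran from -0.12 (SE 0.0831) to -0.03 (SE 0.0824).

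GCLM (chromosome 1, 93885199 to 93909430, minus strand), whose window is printed above, was at 50.01, 60.0 and 56.9 CPM with DMSO, 63.7, 61.8 and 61.4 with venetoclax, 51.7, 46.6 and 47.3 with ERKi, and 52.1, 52.8 and 49.6 in the combination. DMSO replicate 1 lay among the ERKi and combination libraries and the other DMSO libraries lay above them. GCLM fell with ERKi (log2 fold change -0.20, SE 0.0642, adjusted p = 0.0122). That call was lost without DMSO replicate 2 (adjusted p = 0.0625), under scaling by library totals (0.16) and under upper quartile scaling (0.426). In the combination GCLM was at -0.11 (adjusted p = 0.14), and without DMSO replicate 1 it was called at -0.19 (adjusted p = 0.00365).

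In the thioredoxin branch PRDX1, SRXN1 and TXNRD1 all fell with ERKi, and PRDX1 fell most of the 9 genes. PRDX1 encodes peroxiredoxin 1, an abundant enzyme that reduces hydrogen peroxide. PRDX1 (chromosome 1, 45511051 to 45522890, minus strand) was at 159.5, 162.6 and 164.8 CPM with DMSO, 190.3, 179.4 and 179.0 with venetoclax, 60.4, 57.8 and 58.1 with ERKi, and 67.5, 68.0 and 72.1 in the combination. The 4 groups did not overlap. The log2 fold change against DMSO was -1.46 with ERKi (SE 0.0475, adjusted p = 9.63e-14), a level 2.76-fold lower, and -1.23 in the combination (SE 0.0472, adjusted p = 1.49e-12), 2.35-fold lower. The exons of PRDX1 share 379 bases (24.9% of its exon length) with MMACHC on the other strand. MMACHC held 2934 counts over the 12 libraries, against 28946 for PRDX1.

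SRXN1 encodes sulfiredoxin, which restores peroxiredoxins that peroxide has over-oxidised. SRXN1 (chromosome 20, 646615 to 653200, minus strand) was at 47.8, 47.5 and 44.5 CPM with DMSO, 43.9, 43.1 and 47.1 with venetoclax, 25.9, 28.4 and 26.5 with ERKi, and 33.2, 32.6 and 34.6 in the combination. The DMSO and venetoclax libraries overlapped, and the combination lay between them and ERKi. Its log2 value fell by 0.79 with ERKi (SE 0.0594, adjusted p = 3.38e-09) and by 0.48 in the combination (SE 0.0589, adjusted p = 2.21e-06).

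TXNRD1 encodes the cytosolic thioredoxin reductase, the selenoprotein that returns electrons from NADPH to thioredoxin. TXNRD1 (chromosome 12, 104215779 to 104350307, plus strand) was at 218.7, 250.8 and 243.1 CPM with DMSO, 247.4, 243.5 and 241.0 with venetoclax, 176.6, 181.8 and 177.3 with ERKi, and 194.2, 204.0 and 205.9 in the combination. All ERKi and combination libraries lay below all DMSO libraries. Its log2 value fell by 0.41 with ERKi (SE 0.0494, adjusted p = 1.22e-06) and by 0.24 in the combination (SE 0.0494, adjusted p = 0.000479).

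GPX4, the selenoenzyme that reduces lipid hydroperoxides in membranes and guards against ferroptosis, was lowest with ERKi, below its level in the combination. GPX4 (chromosome 19, 1103994 to 1106779, plus strand) was at 163.6, 120.8 and 125.1 CPM with DMSO, 134.7, 131.6 and 129.5 with venetoclax, 88.0, 97.7 and 96.2 with ERKi, and 137.8, 138.2 and 146.7 in the combination. DMSO replicate 1 was the highest of all 12 libraries, and all ERKi libraries were the lowest. With ERKi the log2 fold change was -0.54 (SE 0.086, adjusted p = 3.09e-05), and -0.39 without DMSO replicate 1 (adjusted p = 2.91e-07). In the combination GPX4 was at 0.05 against DMSO (SE 0.085, adjusted p = 0.648), and without DMSO replicate 1 it was called higher, at 0.19 (adjusted p = 0.00114).

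NQO1 encodes a quinone reductase and is often read as an indicator gene of NRF2. NQO1 (chromosome 16, 69709401 to 69726560, minus strand) was at 37.0, 37.6 and 38.03 CPM with DMSO, 43.2, 42.8 and 45.5 with venetoclax, 22.5, 23.2 and 23.1 with ERKi, and 25.6, 24.9 and 23.0 in the combination. The ERKi and combination libraries overlapped and lay below all others. The log2 value of NQO1 fell by 0.71 with ERKi (SE 0.0584, adjusted p = 1.09e-08) and by 0.62 in the combination (SE 0.0586, adjusted p = 1e-07).

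With both drugs, the combination against DMSO, 5 of 9 genes fell (NFE2L2, NQO1, PRDX1, SRXN1 and TXNRD1) and none rose, where 33.4% of all tested genes were called lower, 30.4% higher and 63.8% in either direction. The median over the 9 genes was -0.24, against -0.01 over all genes tested. The 9 genes summed to 697 to 720 CPM. KEAP1, GPX4, GCLC and GCLM were not called. Under upper quartile scaling KEAP1 was called higher beside the same number lower, and the split over all genes went from 4607 higher and 5068 lower to 5534 and 4161. Without DMSO replicate 1, 7 of 9 were called, 6 lower (GCLM among them) and 1 higher (GPX4). This comparison and ERKi against DMSO share the 3 DMSO libraries, so their values are given side by side and not as independent evidence. The fibroblast markers given above were lowest in the combination, and their part in its results was not tested.

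**Figure D3:**
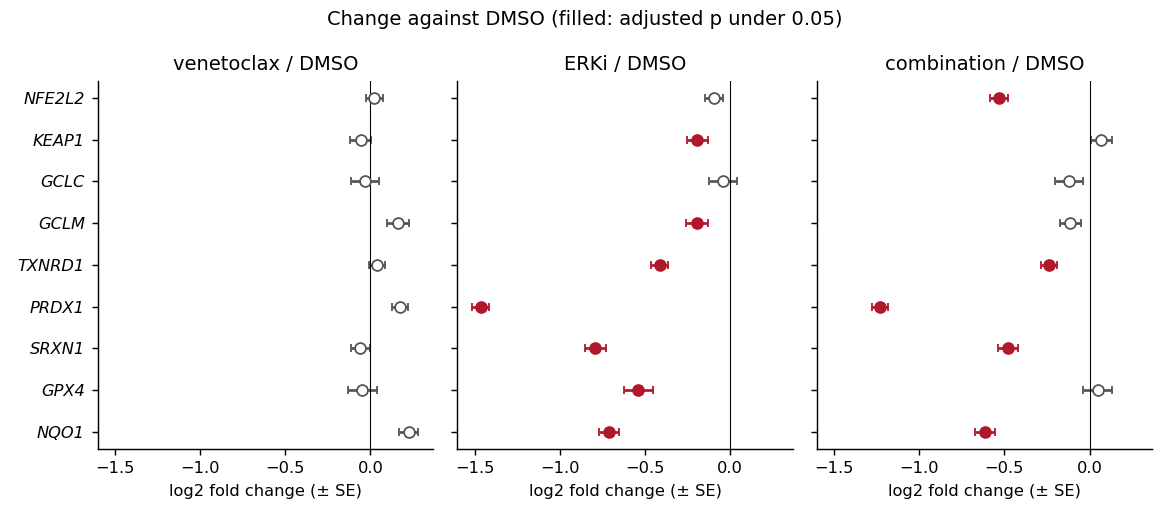
Log2 fold change of each gene against DMSO (horizontal axis, bar: SE) for venetoclax, ERKi and the combination, filled where the adjusted p was under 0.05. None of the 9 genes is filled for venetoclax, 7 are for ERKi and 5 for the combination, with PRDX1 farthest left at -1.46 and -1.23.

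With BCL2 inhibition alone, venetoclax against DMSO, edgeR called 0 of the 9 genes, as did limma-voom. Of all tested genes edgeR called 0.402%, with 0.0198% higher and 0.382% lower. At an unadjusted p under 0.05 there were 3: NQO1 at 0.22 (SE 0.0561, adjusted p = 0.151), PRDX1 at 0.17 (SE 0.0452, adjusted p = 0.181) and GCLM at 0.16 (SE 0.0636, adjusted p = 0.465), on the log2 scale. In these 3 genes every venetoclax library lay above every DMSO library, which held for 6.87% of all tested genes. The 3 were picked by a test on the same libraries, so this separation is no further evidence. The share of all tested genes with an unadjusted p under 0.05 was not counted. DESeq2 called PRDX1 alone, at 0.18 (adjusted p = 0.0441). The adjusted p of PRDX1 over all alternatives ran from 0.0441 to 0.609. The 6 others ran from -0.06 to 0.04.

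Adding ERKi to venetoclax, the combination against venetoclax, left 6 of 9 genes lower and none higher, where 34.2% of all tested genes were called lower, 32.1% higher and 66.2% in either direction. PRDX1 was at -1.40 (SE 0.0473, adjusted p = 2.96e-13), NQO1 at -0.84 (SE 0.0583, adjusted p = 1.82e-09) and NFE2L2 at -0.56 (SE 0.0529, adjusted p = 8.66e-08). SRXN1 was at -0.42, TXNRD1 at -0.28 and GCLM at -0.28 (adjusted p = 9.7e-06, 0.000109 and 0.00123). KEAP1 (0.13, adjusted p = 0.0821), GPX4 (0.10, adjusted p = 0.336) and GCLC (-0.09, adjusted p = 0.363) were not called. With only the 6 libraries compared, KEAP1 (adjusted p = 0.00205) and GPX4 (0.0155) were called higher, and likewise under upper quartile scaling (0.00172 and 0.0334).

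Adding venetoclax to ERKi, the combination against ERKi, split the genes: 5 were higher, led by the lipid peroxidase GPX4, and NFE2L2 was lower. Across all tested genes 26.5% were called higher, 24.3% lower and 50.9% in either direction. GPX4 rose by 0.58 (SE 0.0862, adjusted p = 3.43e-05), a level 1.5-fold higher, SRXN1 by 0.31 (SE 0.0608, adjusted p = 0.000439), KEAP1 by 0.26 (SE 0.0617, adjusted p = 0.00213), PRDX1 by 0.24 (SE 0.0485, adjusted p = 0.000734) and TXNRD1 by 0.17 (SE 0.0496, adjusted p = 0.00802). In each of these 5 genes, all 3 combination libraries lay above all 3 ERKi libraries, as in 31.1% of all tested genes. The 5 were picked by a test on the same libraries, so this separation is no further evidence. NFE2L2 fell by 0.44 (SE 0.0529, adjusted p = 3.93e-06). NQO1 (0.10, adjusted p = 0.206), GCLM (0.08, adjusted p = 0.299) and GCLC (-0.08, adjusted p = 0.441) were not called.

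The rises of PRDX1, KEAP1 and TXNRD1 were lost under another scaling. With library totals alone, where the median of all genes moved to -0.13, the split over all genes went from 4023 higher and 3694 lower to 2763 and 5181. GPX4, SRXN1 and NFE2L2 were still called, at 3 of 9 genes, while PRDX1 (0.11, adjusted p = 0.0619), KEAP1 (0.14, adjusted p = 0.0589) and TXNRD1 (0.05, adjusted p = 0.43) were not. TXNRD1 was also not called without combination replicate 3 (0.15, adjusted p = 0.0541).

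The interaction compares how venetoclax acted with and without ERKi: it is the effect of venetoclax on top of ERKi minus its effect without ERKi, on the log2 scale. It was called for 4 of 9 genes, where 39.2% of all tested genes were called, 21.3% above and 18% below 0. NFE2L2 lay below at -0.47 (SE 0.074, adjusted p = 0.000151), with a venetoclax effect of 0.02 without ERKi and -0.44 with it. GPX4 lay above at 0.63 (SE 0.121, adjusted p = 0.00068), with effects of -0.05 and 0.58. Without DMSO replicate 1, GPX4 was at 0.49 (adjusted p = 4.45e-06).

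SRXN1 lay above at 0.37 (SE 0.0837, adjusted p = 0.00229) and KEAP1 at 0.32 (SE 0.0871, adjusted p = 0.00841). KEAP1 was not called with library totals alone (0.21, adjusted p = 0.0522), where the median of all genes moved to -0.10 and the split over all genes went from 3227 above and 2724 below to 2334 and 3765, and NQO1 was called there (-0.24, adjusted p = 0.0369). TXNRD1 (0.13, adjusted p = 0.14) was called without DMSO replicate 1, at 0.19 (adjusted p = 0.00212). PRDX1, whose fall was the deepest, was at 0.06 (SE 0.0663, adjusted p = 0.489).

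**Figure D4:**
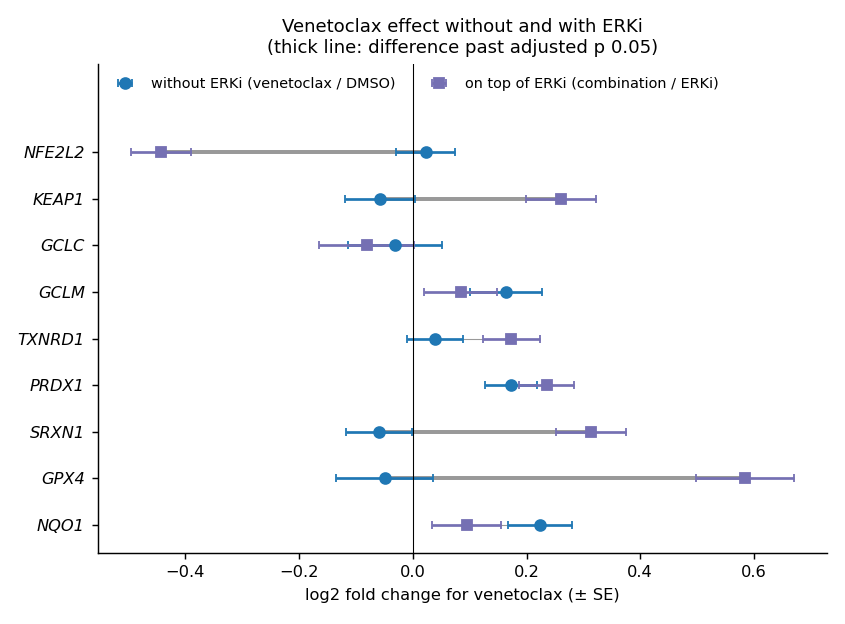
Effect of venetoclax on each gene as a log2 fold change (horizontal axis, bar: SE) without ERKi (circles) and on top of ERKi (squares), with a thick line where their difference passed an adjusted p of 0.05. NFE2L2 moves left to -0.44, whereas GPX4 moves right to 0.58, and SRXN1 and KEAP1 move right by less.

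The other genes of the pathway moved in both directions with ERKi, as all tested genes did. Of all tested genes 34.5% were called higher and 35.2% lower with ERKi against DMSO. In the combination against ERKi these shares were 26.5% and 24.3%, and each list count below is to be read beside them. With library totals alone, the counts over all 15173 genes were 5925 and 4745 with ERKi, and 2763 and 5181 in the combination against ERKi. Of 12 further regulators and partners of NRF2, 4 rose and 5 fell with ERKi, with a median log2 fold change of 0.10 against 0.01 over all genes, and 7 rose and 5 fell with library totals alone. SQSTM1, the autophagy receptor that can bind KEAP1, rose from 76.6 ± 5.5 to 162.5 ± 2.01 CPM (SD, n = 3). Its log2 fold change was 1.08 (SE 0.053, adjusted p = 1.3e-11), and it was at -0.35 in the combination against ERKi (adjusted p = 3.25e-05). MAFG, a small MAF partner of NRF2, rose by 0.74, and PGAM5, a mitochondrial phosphatase that binds KEAP1, fell by 1.27 and was 0.64 higher in the combination than with ERKi. BACH1, the repressor that competes with NRF2 at its elements, was picked after its values were seen, and rose by 0.80 (SE 0.0904, adjusted p = 5.79e-07).

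Other NRF2 targets split as well, and 28 of the 31 listed passed the filter on low counts. Of these 28, 11 rose and 7 fell with ERKi (median 0.07), and 5 rose and 11 fell in the combination against ERKi (median -0.04). ABCC4, an efflux pump, rose with ERKi from 65.0 ± 6.69 to 204.6 ± 1.65 CPM, by 1.65, and was lower by 0.99 in the combination against ERKi. ME1, the NADPH-making malic enzyme, rose by 1.32 and was then at -1.15, and BLVRB, a biliverdin reductase, rose by 1.49. HMOX1 (haem oxygenase), FTH1 (ferritin heavy chain) and SLC7A11 (the cystine transporter) were picked after their values were seen. They rose with ERKi by 2.64 (SE 0.355), 1.06 (SE 0.073) and 0.95 (SE 0.085). HMOX1 held only 4 to 17 counts in a DMSO library and 61 to 69 in an ERKi library. The targets named so far all rose with ERKi, so they do not stand for the whole list. TXN (thioredoxin) and PTGR1, also picked after their values were seen, had lower means with ERKi. TXN went from 189.7 CPM with DMSO to 121.1 with ERKi, and PTGR1 from 18.9 to 10.1.

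Among other glutathione enzymes, 14 of 27 fell and 8 rose with ERKi (median -0.20), and 12 rose and 3 fell in the combination against ERKi (median 0.14). With library totals alone the latter were 7 and 7. GSS, which completes glutathione, fell from 66.1 ± 7.11 to 24.6 ± 0.563 CPM, by 1.42, and was 0.69 higher in the combination than with ERKi. CHAC2 (-2.50) and GGCT (-1.13), which act in glutathione breakdown, fell with ERKi, and GLO1, which uses glutathione to clear methylglyoxal, was 0.42 higher in the combination than with ERKi.

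Other thioredoxin, peroxiredoxin and methionine sulfoxide reductase genes fell in 8 of 15 cases with ERKi and rose in 1 (median -0.19). In the combination against ERKi 9 of 15 were higher and 0 lower (median 0.36), and 6 and 0 with library totals alone. PRDX4, the peroxiredoxin of the endoplasmic reticulum, fell by 1.25 and was 0.79 higher in the combination than with ERKi, and PRDX6 fell by 0.74. TXNIP, an inhibitor of thioredoxin, rose by 0.78 and was a further 0.58 higher in the combination.

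Of 4 measured superoxide dismutase and catalase genes, including the copper chaperone CCS, 2 rose and 2 fell with ERKi. CAT, which encodes catalase, rose from 219.7 ± 7.42 to 483.7 ± 13.2 CPM, by 1.14, whereas SOD1, the cytosolic superoxide dismutase, fell by 0.88, and CCS rose by 0.89. Of 7 phagocyte NADPH oxidase genes, a source of superoxide in myeloid cells, 2 rose and 3 fell, and with library totals alone 3 rose and 1 fell. NCF1 was at -0.79 and NCF4 at 0.39 (adjusted p = 0.0416). CYBA and CYBB, the membrane subunits, were 0.53 and 0.27 higher in the combination than with ERKi.

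TXNRD1 and GPX4 are selenoproteins, and genes of selenocysteine insertion were counted for that reason: 3 of 7 rose and 3 fell with ERKi (median -0.18). SEPHS1 fell by 1.19 and SEPHS2, the selenophosphate synthetase, rose by 0.51, and SEPSECS was at 0.35 and then at -0.51 in the combination against ERKi. Of 9 other genes of lipid peroxidation and ferroptosis, 4 rose and 5 fell with ERKi. NCOA4, the ferritin receptor of autophagy, rose from 566.0 ± 27.2 to 1230 ± 24 CPM, the transferrin receptor TFRC fell by 2.19, and SLC3A2, the partner of SLC7A11, fell by 1.26 and was 0.75 higher in the combination than with ERKi. DHODH, a mitochondrial enzyme, was 0.58 higher there. With venetoclax alone, 0 of the 109 measured entries of these 8 lists were called by edgeR, DESeq2 or limma-voom, and 14, 12 and 14 had an unadjusted p under 0.05. Without DMSO replicate 1, edgeR called 1 higher, and 27 had an unadjusted p under 0.05. The share of all tested genes with an unadjusted p under 0.05 was not counted, so these numbers have no background beside them.

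**Figure D5:**
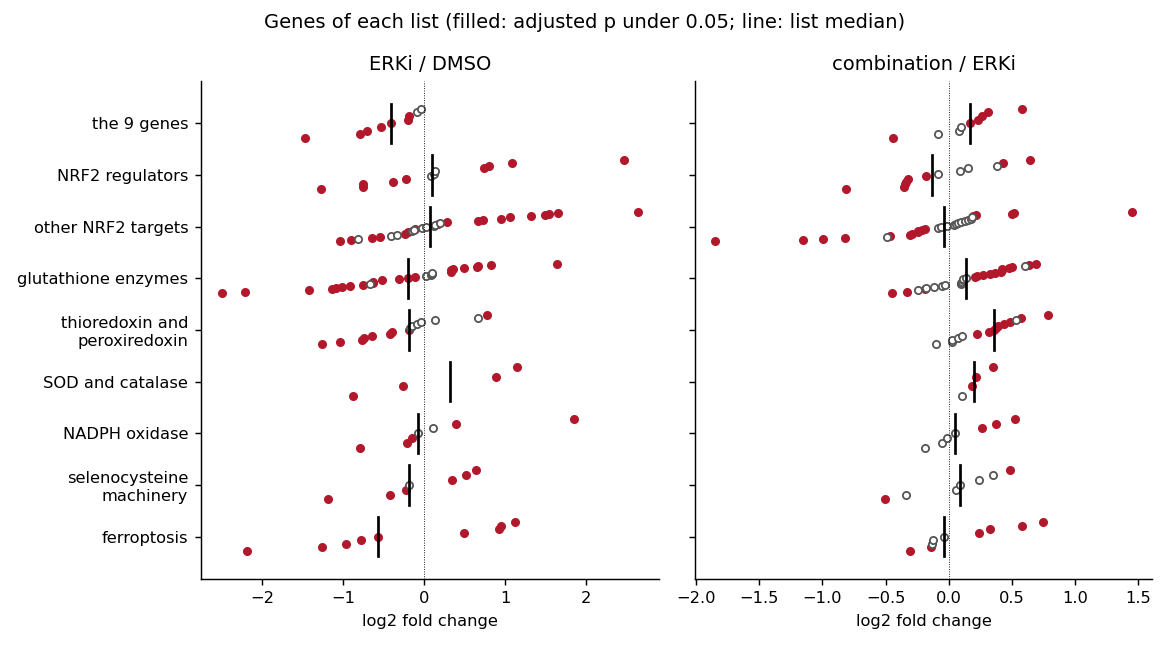
Log2 fold change (horizontal axis) of each measured gene in the 9 and in 8 further lists, for ERKi against DMSO and for the combination against ERKi, with filled points at an adjusted p under 0.05 and a line at each list's median. The 9 genes all lie left of 0 with ERKi (median -0.41), while the other NRF2 targets spread to both sides (median 0.07).

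Among the 9, GCLM and TXNRD1 had the most similar patterns over the 12 libraries, with a root mean square difference of 0.094 between their centred log2 CPM. Among 9658 other protein-coding genes with a mean of at least 5 CPM, the closest to PRDX1 were PCNA, the sliding clamp of DNA replication (0.053), and HSPD1, the mitochondrial chaperonin (0.054). The closest to NFE2L2 were KIFAP3 (0.050) and BPNT1 (0.054). TOMM20, a receptor of mitochondrial protein import, and SMARCC1 were the closest to TXNRD1 (0.029 and 0.032), and ARHGDIB and DDX49 to GPX4 (0.034 and 0.038). KHDRBS1 and EIF4G1 were the closest to SRXN1 (0.052 and 0.055), MRPL19 and ZC3H15 to NQO1 (0.056 and 0.060), CUL4A and ZNF330 to GCLM (0.053 and 0.059), and TNIP2 and POLG to KEAP1 (0.040 and 0.051). These are descriptions over 12 libraries of 4 groups, and genes that change little lie close to many others.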

How the data were processed

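Poly(A) RNA of OCI-AML3 cells was sequenced as paired ends, per the labels. The authors deposited raw read counts per gene symbol. HISAT2, HTSeq and DESeq2 with the hg38 build are named in the submitters' processing notes, without versions. The annotation release is not given in the sources used here, nor is the strand setting. The table had 54628 symbols, and 0 rows named no gene. Analysis was by edgeR (version 4.0.16, with R version 4.3.3). The function filterByExpr, set to a minimum count of 10 and a minimum total of 15, left 15173 genes. Libraries were scaled by TMM factors, which take most genes as unchanged. All 12 libraries entered 1 model of group means (8 residual degrees of freedom), tested by quasi-likelihood F tests with Benjamini-Hochberg adjustment over all genes tested. The prior count was 0.125. The SE of a log2 fold change is its size over the root of its F value. CPM values use the scaled library sizes.

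The pipeline was tested on simulated counts in which only a small set of genes changed, at a fixed spread. With ERKi 69.7% of tested genes were called, so the simulation does not cover scaling under so wide a change. Libraries of the same replicate number had no correlation above 0.1 in their deviations, so no block was used in the main fit. Named genes of the further lists were those with the smallest adjusted p (up to 3 with ERKi, up to 2 in the combination against ERKi) among called genes with a mean of at least 5 CPM and no overlap of the groups. Exceptions are marked as picked after their values were seen. The 9 genes and the lists were chosen with earlier results of these data known. Alternatives were RLE factors, DESeq2 1.42.0, limma-voom (limma 3.58.1), other filters on low counts, a replicate block, fits to only those libraries being compared, and leaving out each library in turn. Library totals alone, upper quartile scaling and other settings for the list counts were added after the data were seen. Figures were drawn with matplotlib 3.10.9.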

Additional observations from a re-analysis of the deposited data

Results flagged for a closer look

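For 4 of the 9 genes the effect of venetoclax differed with and without ERKi by the interaction test of edgeR, which is what singled them out. The difference on the log2 scale was -0.47 for NFE2L2, 0.63 for GPX4, 0.37 for SRXN1 and 0.32 for KEAP1. In all 4 genes the effect on top of ERKi passed the threshold and the effect without ERKi did not. The latter held for all 9 genes, since edgeR called none of them with venetoclax alone. PRDX1 and TXNRD1 had the same split without a called interaction, so the split is no further evidence of a difference. Across all tested genes 39.2% showed such a difference.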

How the results depend on the processing

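Over 21 alternatives, the 9 genes in the comparisons gave 855 recomputed log2 fold changes, of which 440 belonged to results called at first. Of these, 429 were still called in the same direction, 11 lost their call and 0 reversed, and 11 values were called that had not been. Each is given in the report with its adjusted p. A further 16 values, not called under either setting, changed sign. The number of the 9 genes called for venetoclax against DMSO went from 0 to 1 with DESeq2, and for the combination against ERKi from 6 to 3 with library totals alone. For all other alternatives the number called stayed within 1.5 times of the first. Upper quartile scaling moved the median of all genes with ERKi against DMSO to 0.15, and with the combination against venetoclax to 0.12, and library totals moved it to 0.10 with ERKi against DMSO. Of 18 pairs of libraries with the same replicate number, 0 had deviations correlated above 0.1 (-0.075 to 0.090), the threshold set for pairing. A weaker pairing would not be seen by that threshold. With the replicate block the numbers of genes called were 0, 7, 5, 6, 6 and 4 in the 6 comparisons, the same as without it. With 3 libraries per group and 1 DMSO library that stood apart, differences near the size of the standard errors were not detectable.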
